A study of Mus musculus with 21 samples.

Results

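Embryos without a genome were compared with zygotes held in mitosis, to follow zygote RNA where no embryonic genome could add to it. The comparison took the 2 arrays titled as genomeless embryos and the 3 arrays titled as mitotic zygotes, 5 of the 21 arrays of a mouse study of nuclear transfer on Illumina bead arrays with 24613 probes. Every embryo array was made from a pool of 20 embryos cultured in KSOM medium, and no strain, genotype or transgene is named in the sources used here. Mitotic zygotes had been arrested with nocodazole, a drug that blocks microtubule assembly, and were collected 32 to 34 h after the hCG injection that induces ovulation. Genomeless embryos were collected at 48 to 50 h after hCG, which was 22 to 24 h after their own genome had been taken out and none put back. The labels do not say at which stage of the cell cycle the genome was removed. Counted back from collection, it was removed at about the time when interphase zygotes were collected (3 arrays, 24 to 28 h after hCG) and before the mitotic zygotes were. Interphase zygotes are therefore given as the other starting point. Embryos with a genome, of the age of the genomeless ones, were 2-cell embryos (2 arrays, 48 to 50 h) and drug controls (3 arrays, 48 to 50 h), which had been exposed to nocodazole during mitosis and then cultured on.

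A fertilised mouse egg starts out on RNA that the oocyte made and stored. Part of this maternal RNA is degraded by machinery already present in the egg, and part is cleared only after the embryo transcribes its own genome, with the major wave of transcription in the mouse at the 2-cell stage. Many stored messages carry short poly(A) tails that are lengthened when the message is to be translated. Labelling with the kit used here is primed on the poly(A) tail, so loss of a message and shortening of its tail cannot be told apart. In pools of embryos, fewer intact embryos and less RNA per embryo cannot be told apart either, and every level below is relative to the other genes on the same array.

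The genomeless arrays differed in brightness far more than the mitotic ones. Mean signal was 123.85, 174.47 and 139.22 on mitotic arrays A, B and C, with 7887, 7893 and 8131 probes detected (detection p below 0.01). It was 334.78 on genomeless A, with 4816 probes detected, and 11.25 on genomeless B, with 2426. The 100 brightest probes held 28.5% of the signal of genomeless A and 42.7% of that of genomeless B, against 16.7 to 18.2% on the mitotic arrays. Mitotic A and C were as close as repeat hybridisations (SD of their log2 differences 0.117, against 1.477 between the genomeless arrays) and were averaged as 1 sample. The comparison thus had 2 samples on each side, and p-values measure only the spread between samples of a group, pooled over all groups of the fit, which may be technical. The median within-group SD was 0.5 in genomeless embryos and 0.1 in mitotic zygotes. The limma fit shares 1 spread per gene across all groups, so this shared spread is below the genomeless one and genes are called more easily than that spread alone would allow. With only these groups in the fit 233 genes were called in place of 1738. A second fit with array quality weights, which gave both genomeless arrays a weight of 0.18, is therefore quoted beside the calls. Mitotic A lay on chip 3, mitotic B and C on chip 4, genomeless A on chip 5 and genomeless B on chip 6, and no chip held both groups, so chip and group cannot be told apart within the comparison itself.

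More zygote transcripts were called lower than higher in genomeless embryos, and many were no longer detected. Of 8527 genes tested, 1738 (20.4%) differed at an adjusted p below 0.05 in limma, 1154 of them (13.5%) lower and 584 (6.85%) higher in genomeless embryos. With array weights 485 were called, 352 lower and 133 higher, all of them among the 1738. The split between directions depended on the scaling: 33.6% of calls were higher after quantile normalisation, 4.29% when each array was scaled to the median of its detected probes, 14.7% with the authors' mean-scaled values and 47.3% on ranks within arrays. Without genomeless B 1144 genes were called and without genomeless A 2771. Left without mitotic A and C the fit called 625, and left without mitotic B 653.

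Detection within each array needs no scaling between arrays. A gene counted as detected on an array when any of its probes was, while its level and call came from a single probe. That probe can itself lie at background, as for Mcm7 and Ndufs3 on both genomeless arrays. All 3 mitotic arrays detected 5632 of the genes. Genomeless A still detected 62.0% of these, genomeless B 29.7% and both 26.5%, and 34.8% were found on neither. The share grew with the level in the zygote. In the lowest of 10 equal bins of these genes by mitotic level, genomeless A detected 32.4% and genomeless B 18.1%, and in the highest bin 97.2% and 72.3%. Falls were called for 1.6% of the lowest bin and 41.5% of the highest. The bins were set by mitotic level, which itself favours falls in the highest bin. The lowest signal that counted as detected was 83.2 on genomeless A and 10.9 on genomeless B, which after normalisation is a log2 level of 7.29 and 8.74. These floors stand at the 55.5th and 77.6th percentile of each array's genes, against 28.8 to 30.6 on the mitotic arrays. Genes that ranked below the floor of a genomeless array were not measurable on it.

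**Figure D1:**
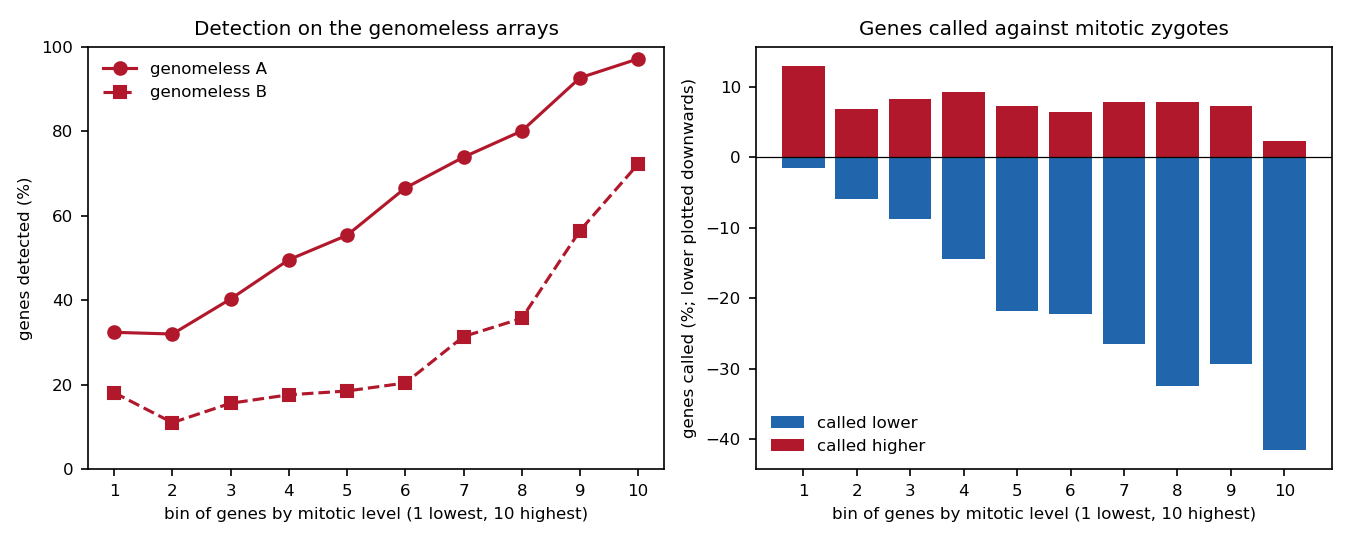
Left, share of genes detected on genomeless A (circles) and genomeless B (squares) in 10 equal bins of the 5632 genes found on all mitotic arrays, ordered by mitotic level. Right, percentage of each bin called higher (up) or lower (down) in genomeless embryos. Detection rises from 32.4 to 97.2% on A and from 18.1 to 72.3% on B, and falls are called for 1.6% of the lowest and 41.5% of the highest bin.

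Both genomeless arrays lay on the same side of the mitotic mean for 66.7% of all genes tested. Genes were called on the mean of these arrays, so their agreement among called genes is a description only. A fall of at least 2-fold on both arrays was seen for 1007 of the 1154 falls, and a rise of that size on both for 439 of the 584 rises. Only 122 of the falls were detected on all 5 arrays, by any probe of the gene. A further 355 were detected on genomeless A alone, 7 on genomeless B alone and 667 on neither, and 3 had not been detected on every mitotic array. Of the 667, only 153 have a level in zygotes high enough that the genomeless floor itself is at least 2-fold below it. For 295 the floor is not below the zygote level, and the fall cannot be given a size.

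**Figure D2:**
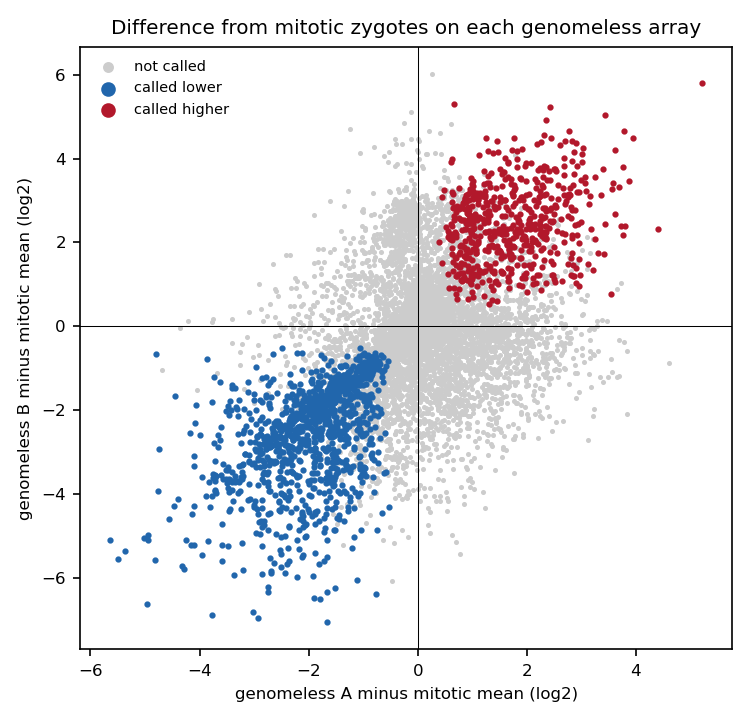
Difference from the mitotic mean (log2) of each of the 8527 genes on genomeless A (x axis) and genomeless B (y axis). Blue points are the 1154 genes called lower, red points the 584 called higher and grey points the rest. Called genes, chosen on the mean of both arrays, sit in the lower left and upper right corners, and many uncalled genes differ in sign between the arrays.

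Among falls measured on all 5 arrays, the largest was in Ldhb. Ldhb, which encodes a subunit of lactate dehydrogenase, stood at 13.82, 13.55 and 13.52 (log2 level) in mitotic A, B and C and at 11 and 9.58 in genomeless A and B. It fell by 3.32 on the log2 scale (SE 0.55), with an adjusted p of 0.00123 in limma. Eif6, which keeps the large ribosomal subunit from joining the small one too early, stood at 12.43, 12 and 12.38 against 8.21 and 9.61, and fell by 3.29 (SE 0.42, adjusted p = 0.000265). Psmd4, a ubiquitin receptor of the proteasome, stood at 13.11, 13.36 and 13.27 against 10.46 and 10.02, and fell by 3.04 (SE 0.36, adjusted p = 0.000149). In these 3 genes the mitotic arrays lay close together and both genomeless arrays lay well below them. By rank within the array, Psmd4 went from the 99.5th to 99.7th percentile to the 91.0th and 88.7th, and Eif6 from the 97.5th to 98.5th to the 70.1st and 85.7th. The other 5 of the 8 largest measured falls were Miox (myo-inositol oxygenase), Nusap1 (a spindle protein), Acot7 (an acyl-CoA thioesterase), Trim27 (a ubiquitin ligase) and Oas1e (an oocyte member of the oligoadenylate synthetase family), with differences from -3.27 to -3.0. All 8 were also called with array weights and without genomeless B.

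Other transcripts that were abundant in zygotes were not detected in genomeless embryos at all. For these a lower bound is given, the mitotic mean against the higher of the probe's own value and the array's floor on each genomeless array. Aurka, the kinase that builds the spindle poles, stood at 11.18, 12.14 and 11.22 on the mitotic arrays and at background on both genomeless arrays, at least 12.6-fold lower (adjusted p = 8.38e-07). Glrx, which encodes the redox enzyme glutaredoxin, stood at 11.77, 11.56 and 11.73 and was at least 12.5-fold lower (adjusted p = 0.000117). Tubb6, a beta tubulin, was at least 10.3-fold lower (adjusted p = 1.11e-05) and Elp3, the catalytic subunit of Elongator, at least 10.2-fold lower (adjusted p = 0.000514). Bounds between 9.33 and 10.0 held for Pdcd2l, the spindle-associated Troap, F8a and Ttc1. These 8 genes ranked between the 93.8th and 97.9th percentile on every mitotic array, and all 8 were called with array weights. They were chosen as called falls without detection on either genomeless array and with the largest bounds. Their ranks and calls are therefore a description only, and the adjusted p-values rest on background readings on the genomeless arrays.

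**Figure D3:**
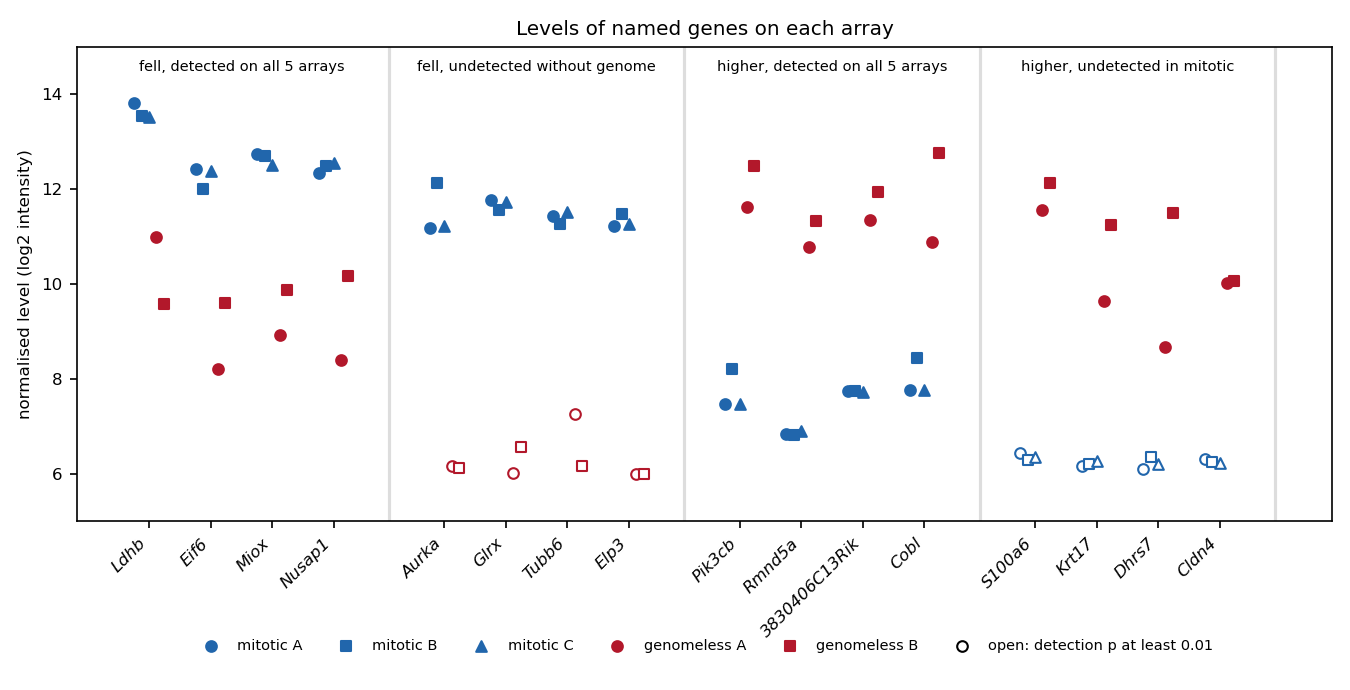
Normalised level (log2 intensity) of 16 genes on each of the 5 arrays, in 4 sets: the 4 largest falls measured on all arrays, the 4 largest bounded falls, the 4 largest rises measured on all arrays and the 4 largest bounded rises. Blue symbols are mitotic zygotes, red symbols genomeless embryos, and open symbols values with a detection p of at least 0.01. In every gene the genomeless arrays lie on 1 side of all mitotic arrays, and the distance between genomeless A and B is often above 1.

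Calls among transcripts of the mitotic machinery were mostly falls. Of 55 tested genes of mitosis and the spindle, 19 (34.5%) were called lower and 2 higher, Cdc25b and Cdc26, against 13.5% lower and 6.85% higher over all genes. With array weights 7 were lower and 0 higher (3 higher at an unadjusted p below 0.05 in the main limma fit). The list's median difference was -0.93, and -0.20 with undetected genes at their bound, against -0.10 and 0.00 over all genes. Of its 48 genes found on every mitotic array, genomeless A detected 64.6% and genomeless B 33.3%, against 62.0 and 29.7% over all genes. Falls were called more often at higher mitotic levels, and neither this list nor those below were set against genes of like level. Prc1, which bundles the microtubules of the central spindle, stood at 12.68, 12.78 and 12.71 in mitotic zygotes, at 7.78 in genomeless A and at background (6.12) in genomeless B. It fell by 5.79 (SE 0.91, adjusted p = 0.000904), and the difference was -4.48 with genomeless B at its floor. The kinetochore gene Zwint was at least 3.38-fold lower (adjusted p = 0.00013). Aurkc, the Aurora kinase of germ cells, was detected on genomeless A and fell by 3.76 (SE 0.63, adjusted p = 0.0013), and the difference was -3.11 with genomeless B at its floor. Plk1, Birc5, Anln and Cenph were detected on all 5 arrays and called lower, with differences of -2.78, -2.63, -2.44 and -2.21. With array weights Plk1 and Cenph kept the call, and Birc5 and Anln did not (adjusted p = 0.0743 and 0.154). The cyclin gene Ccnb1 was not analysed here.

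Tubulin and DNA replication genes were also called lower more often than higher. Of 15 tubulins, 6 (40%) were lower and 1 (6.67%), Tubb3, was higher, against 13.5 and 6.85% of all genes, with 4 lower and 0 higher under array weights. Tubb4b stood at 13, 13.29 and 13.02 on the mitotic arrays, at 9.38 on genomeless A and at background (6.27) on genomeless B, and fell by 5.33 (SE 0.66, adjusted p = 0.000206), and the difference was -4.09 with genomeless B at its floor. Of 53 replication genes, 16 (30.2%) were lower and 1, Rfc5, was higher, with 3 lower and 0 higher under array weights. Their median difference was -0.94, but 0.00 with undetected genes at their bound, since 23 of the 49 found on all mitotic arrays were on neither genomeless array. Genomeless A detected 42.9% of the 49 and genomeless B 28.6%. Mcm5, a subunit of the replicative helicase, stood at 11.15, 11.08 and 10.7 in mitotic zygotes and at background in genomeless embryos, at least 7.94-fold lower (adjusted p = 4.09e-05). Rpa1 and Rpa3, subunits of the single-strand DNA binding complex, were detected on genomeless A alone and differed by -2.99 and -2.93 (SE 0.93 and 0.80, adjusted p = 0.0353 and 0.0193). With genomeless B at its floor the differences were -2.96 and -1.60. The calls were kept neither with array weights (adjusted p = 0.0745 and 0.0681) nor without genomeless B (0.166 and 0.191).

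Most calls among proteasome and respiratory chain genes were falls, while few ribosomal protein genes were called. Of 38 proteasome genes, 13 (34.2%) were lower and 1, Psmd7, was higher, with 4 and 0 under array weights and a median difference of -1.10 (-0.28 with bounds). Over all 8527 genes 13.5% were lower and 6.85% higher, and under array weights 352 were lower and 133 higher. Of the 33 proteasome genes found on every mitotic array, genomeless A detected 69.7% and genomeless B 36.4%, against 62.0 and 29.7% over all genes. Pomp, which assembles the proteasome core, stood at 11.89, 11.65 and 11.88 against 9.96 in genomeless A and background (6.1) in genomeless B, and fell by 3.73 (SE 0.84, adjusted p = 0.00697), and the difference was -2.42 with genomeless B at its floor. Of 65 respiratory chain genes, 13 (20.0%) were lower and 2 higher, with 2 lower and 0 higher under array weights. Their median difference was -0.74, but 0.00 with undetected genes at their bound. Uqcrc2, a core subunit of complex III, stood at 11.86, 11.93 and 11.82 against 7.56 in genomeless A and background (6.18) in genomeless B, and fell by 5.02 (SE 0.39, adjusted p = 1.07e-05), and the difference was -3.74 with genomeless B at its floor. Cox5a, a subunit of cytochrome c oxidase measured on all 5 arrays, fell by 2.83 (SE 0.41, adjusted p = 0.000639). Mitochondrially encoded genes were not analysed here.

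Of 51 cytosolic ribosomal protein genes, 2 were lower (Rpl10 and Rpl7l1) and 3 higher (Rps27, Rpl23 and Rpl41), shares of 3.92 and 5.88% that are below those of all genes. Under array weights Rpl10 alone was called. Their median difference was 0.02, and -0.34 when arrays were scaled to the median of detected probes. Of the 39 found on every mitotic array, genomeless A detected 82.1% and genomeless B 64.1%. Over all genes found on every mitotic array the shares were 62.0 and 29.7%, and they rose with the mitotic level. In 5 of 23 genes of glycolysis and pyruvate use (21.7%) the level was lower and in 1 (4.35%), Pdk1, higher. Pkm, the last enzyme of glycolysis, was detected on genomeless A alone and fell by 4.15 (SE 0.77, adjusted p = 0.00237), and the difference was -2.86 with genomeless B at its floor. Of 35 heat shock and chaperone genes 7 (20.0%) were lower, among them the chaperonin subunits Cct8, Cct3 and Tcp1, and 1, Hspb1, was higher. With array weights 2 glycolysis and 3 chaperone genes were lower, Cct8 among them, and 0 were higher in either list. Over all genes 13.5% were called lower and 6.85% higher.

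**Figure D4:**
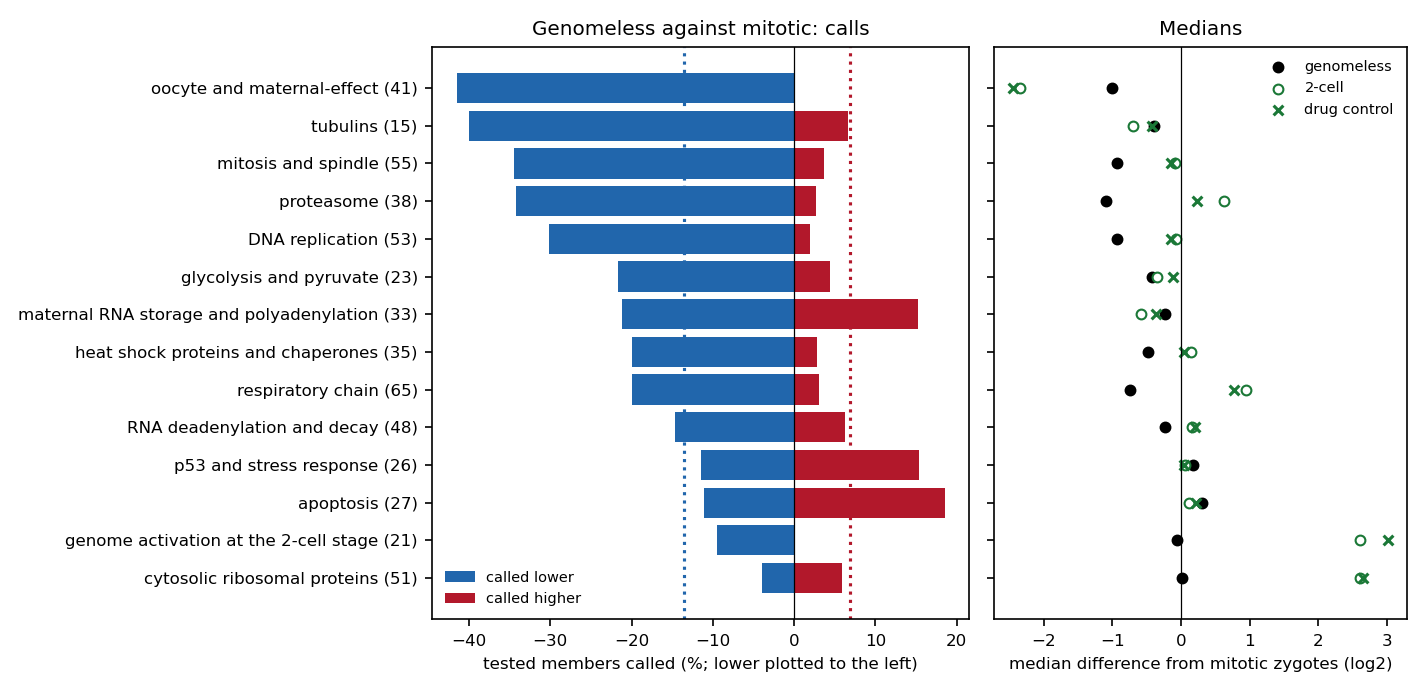
Left, percentage of tested members of 14 gene lists called lower (left) or higher (right) in genomeless embryos against mitotic zygotes, with the number tested in brackets and dotted lines at the shares over all genes (13.5 and 6.85%). Right, the lists' median difference from mitotic zygotes (log2) in genomeless embryos, 2-cell embryos and drug controls. Oocyte genes have the largest share of falls, 41.5%, and their median is -1.0 without a genome and -2.35 and -2.45 with one.

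Most of the highest zygote transcripts were still detected without a genome, and about as many were called lower as were not. All of the 100 highest genes in mitotic zygotes were detected on genomeless A and 87 on genomeless B, and 49 were still among the highest 5% on both. Of the 100, 49 were called lower and 1 higher, with a median difference of -1.40. In 2-cell embryos and drug controls the median of the same genes was -1.96 and -2.04. Because these genes were picked on their mitotic level, the choice itself favours lower values in every group set against mitotic zygotes. Ooep, of the subcortical maternal complex that lies under the egg's membrane, stood at 14.26, 14.17 and 14.26 in mitotic zygotes and at 11.92 and 12.61 in genomeless embryos. It fell by 1.95 (SE 0.51, adjusted p = 0.015), a call not kept with array weights (adjusted p = 0.168). Pcgf1, a polycomb subunit, stood at 13.76, 14.26 and 13.58 against 11.33 and 10.71, and fell by 2.95 (SE 0.39, adjusted p = 0.00034). Of the other 8 highest genes, the calls were lower for Ccno and the splicing gene Phf5a, neither of them kept with array weights (adjusted p = 0.0527 and 0.21). Hmgcs1 (an enzyme of cholesterol synthesis), Ybx1 (an RNA-packaging protein), Bcl2l10, Cdk20, Bmp15 and Hpf1 had differences between -1.40 and -0.39 that missed the threshold.

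Of 41 oocyte and maternal-effect genes, 17 (41.5%) were called lower and 0 higher, and 4 were lower with array weights. Over all 8527 genes 13.5% were lower and 6.85% higher, and 352 were lower with array weights. At an unadjusted p below 0.05 in limma, 24 of the list were lower and 0 higher, against 1795 and 1007 of all genes. In the highest of the 10 bins by mitotic level 41.5% were also called lower. The list was not set against genes of like level. The list's median difference was -1.0, or -0.82 with bounds, and -2.02 when arrays were scaled to the median of detected probes. Rfpl4, an oocyte ubiquitin ligase, stood at 13.4, 12.51 and 13.44 against 10.79 in genomeless A and background (7.65) in genomeless B, and fell by 3.75 (SE 0.78, adjusted p = 0.00466), and the difference was -3.21 with genomeless B at its floor. Zar1, an RNA-binding protein of the oocyte, stood at 11.45, 11.29 and 11.42 and was undetected at 6.56 on genomeless A but detected at 10.69 on genomeless B. Its difference of -2.73 (SE 0.86, adjusted p = 0.0364) therefore rests on arrays that disagreed, and was not called with array weights (0.0602). Dppa3, which protects the maternal genome's methylation, was detected on genomeless A alone and fell by 2.21 (SE 0.67, adjusted p = 0.0312), and the difference was -1.69 with genomeless B at its floor. It was called neither with array weights (0.0869) nor without genomeless B (0.338).

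The oocyte growth factor genes Gdf9 and Bmp15 ranked near the top of every array. Bmp15 stood at 13.66, 13.88 and 13.66 in mitotic zygotes and at 13.13 and 12.45 in genomeless embryos, and ranked at the 98.6th percentile or above on all 5. Its difference of -0.98 (SE 0.47) was not called (adjusted p = 0.162). Gdf9 differed by -1.0 (SE 0.39, adjusted p = 0.0876) and Nlrp5, of the subcortical maternal complex, by -0.62 (SE 0.59, adjusted p = 0.509). Zp3, of the egg coat, stood at 9.17, 9.06 and 9.04 against 8.14 and 10.07 and differed by 0.02 (SE 0.54), but by -1.52, a called fall, when arrays were scaled to the median of detected probes.

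The 95% interval of the difference lay within 2-fold for 1178 genes (13.8%), which are termed held here. Of these, 810 were detected on no array of the 5 and only 18 on all 5. The 18 were B9d1, Calr4, Cnot7, Elavl1, Etf1, Hypk, Ipo9, Nap1l4, Nr2e1, Rsph3a, Rtraf, Sec11a, Sestd1, Sin3a, Stt3b, Tnfaip8, Ttc23 and Whamm. Cnot7, a catalytic subunit of the main deadenylase complex, stood at 12.34 and 12.43 in mitotic A and B and at 12.55 and 12.12 in genomeless A and B (difference -0.03, 95% interval -0.97 to 0.91). Sin3a, the scaffold of a histone deacetylase complex, stood at 11.94 and 12.36 against 11.95 and 12.25 (difference -0.03, interval -0.72 to 0.67). The interval rests on the spread shared by all groups, which is below the genomeless one, so a level is termed held more easily than that spread alone would allow. With array weights 157 genes were held, and with only these groups in the fit 1569. The interval also depends on the scaling: with arrays scaled to the median of detected probes the 18 differences ran from -1.70 to 0.17 and 8 were called lower.

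Genes of RNA storage and decay were called in both directions. Of 33 storage and polyadenylation genes, 7 (21.2%) were lower and 5 (15.2%) higher, against 13.5 and 6.85% of all genes. Of 48 deadenylation and decay genes 7 (14.6%) were lower and 3 (6.25%) higher, about the shares of all genes. Under array weights 2 storage genes were lower and 3 higher, and 2 decay genes were lower and 1 higher. Stau1, a double-stranded RNA binding protein that localises and destabilises messages, stood at 11.37, 11 and 11.15 and was undetected without a genome, at least 8.68-fold lower (adjusted p = 0.000137). Parn, a poly(A)-specific nuclease, was undetected as well and at least 3.02-fold lower (adjusted p = 0.0014, and 0.0505 with array weights). Dis3l, a nuclease of the cytoplasmic exosome, was detected on genomeless A alone and fell by 3.47 (SE 0.54, adjusted p = 0.000873), and the difference was -2.0 with genomeless B at its floor. Ythdf3, which reads methylated adenosine in messages, stood at 6.87, 7.06 and 7.03 against 9.43 and 10.49 and was higher by 2.96 (SE 0.61, adjusted p = 0.00466, but 0.148 under median scaling). The deadenylase subunit Cnot6l stood at 11.61, 10.96 and 11.55 against 11.59 and 11.47, a difference of 0.26 (SE 0.50, adjusted p = 0.779) that was -0.81 under median scaling, and its adaptor Btg4 differed by -0.65 (SE 0.76, adjusted p = 0.611).

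Genomeless embryos were also compared directly with embryos of the same age that had a genome. Against drug controls, 1644 genes (19.3%) were lower and 974 (11.4%) higher in genomeless embryos. Both this comparison and the main one use the genomeless arrays, and the differences of 2-cell embryos and drug controls from mitotic zygotes use the mitotic arrays. Values are therefore set side by side for single genes. Of the oocyte and maternal-effect list, 16 genes were higher and 2 lower in genomeless embryos than in drug controls. Bmp15, which differed by -0.98 from mitotic zygotes without a genome, differed by -5.21 in 2-cell embryos and by -5.06 in drug controls. The genomeless embryos lay above the drug controls by 4.08 (SE 0.47, adjusted p = 2.44e-05). For Cnot6l the values were 0.26 without a genome, -4.20 in 2-cell embryos and -4.01 in drug controls, and the direct difference was 4.27 (SE 0.50, adjusted p = 3.05e-05). Bcl2l10, a survival protein of the Bcl2 family, had -1.38, -3.44 and -4.16, with a direct difference of 2.78 (SE 0.64, adjusted p = 0.00447). Among the 18 held genes, 12 were higher and 1, the termination factor gene Etf1, was lower than in drug controls. These 18 had to be detected on both genomeless arrays and held there, which itself favours levels above drug controls. Their counts are a description only. Cnot7 lay above the drug controls by 2.45 (SE 0.44, adjusted p = 0.000798).

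Other transcripts fell with and without a genome. For Ldhb the differences from mitotic zygotes were -3.32 in genomeless embryos, -2.96 in 2-cell embryos and -3.61 in drug controls, for Miox -3.27, -3.66 and -3.85 and for Nusap1 -3.20, -3.45 and -3.59. None of these was called between genomeless embryos and drug controls (adjusted p = 0.74, 0.381 and 0.656), which does not show that the levels were alike. Glrx and the initiator caspase gene Casp8 had mean levels of 6.34 and 5.92 in drug controls, below the detection floors of 6.66 to 6.75 there, and were undetected in genomeless embryos too, so no difference between these groups can be given.

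The opposite order was seen for genes that were lower without a genome than with one. Prc1 differed from mitotic zygotes by -5.79 in genomeless embryos, -0.94 in 2-cell embryos and -0.68 in drug controls, and Tubb4b by -5.33, -0.32 and -0.10. Their differences from drug controls were -5.10 (adjusted p = 0.000781) and -5.22 (adjusted p = 5.32e-05), and -3.80 and -3.99 with genomeless B at its floor. Aurka differed from mitotic zygotes by -1.53 in 2-cell embryos and -0.68 in drug controls, and genomeless embryos, which did not detect it, lay at least 7.89-fold below drug controls (adjusted p = 3.76e-07). Ttc1 lay at least 10.3-fold below them (adjusted p = 3.58e-06) and Mcm5 at least 5.78-fold (adjusted p = 1.13e-05). Eif6 and Psmd4, which both genomeless arrays measured, differed from drug controls by -3.87 (SE 0.42, adjusted p = 1.56e-05) and -2.82 (SE 0.36, adjusted p = 5.28e-05), and Dppa3 by -2.83 (SE 0.67, adjusted p = 0.00526), or -2.31 at the floor. By list, 20 of 53 replication genes, 20 of 38 proteasome genes, 31 of 65 respiratory chain genes and 33 of 51 ribosomal protein genes were lower than in drug controls, with 2, 1, 1 and 0 higher, against 19.3% lower and 11.4% higher over all genes (also 0 higher ribosomal protein genes at an unadjusted p below 0.05). The direct test does not separate a fall in genomeless embryos from a rise in embryos with a genome. For the ribosomal protein genes the median difference from mitotic zygotes was 0.02 without a genome and 2.61 and 2.65 in 2-cell embryos and drug controls.

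**Figure D5:**
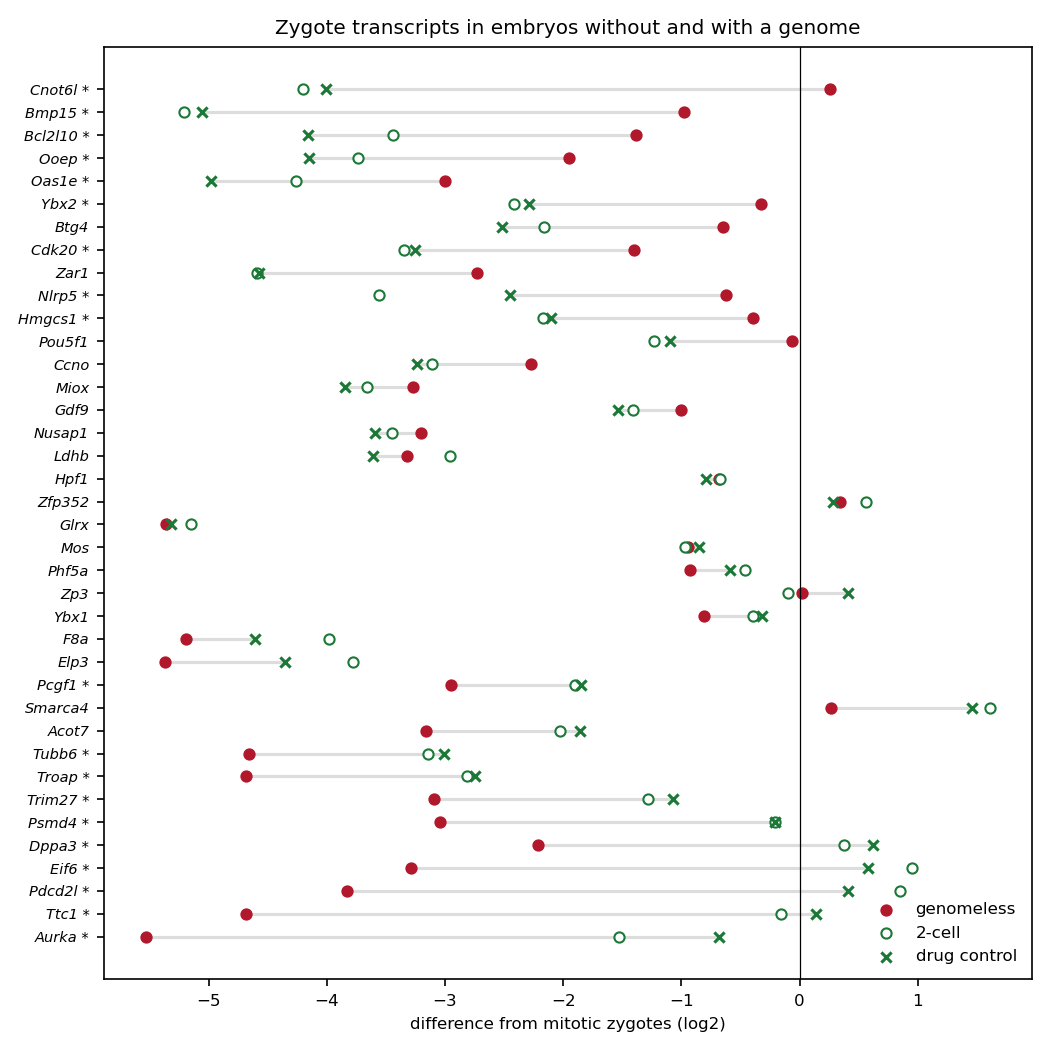
Difference from mitotic zygotes (log2) of 38 genes in genomeless embryos (red), 2-cell embryos (open circles) and drug controls (crosses), ordered by the difference between genomeless embryos and drug controls. The genes are those named by the rules on falls, on the highest zygote levels and on single genes of interest that every mitotic array detected, and a star marks the 19 called between genomeless embryos and drug controls, 9 higher and 10 lower. Genes such as Aurka that neither genomeless array detected have no measured size of fall there.

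Interphase zygotes gave a second reference. Against them, 1359 genes (15.9%) were lower and 743 (8.71%) higher in genomeless embryos. Ldhb differed by -2.57 (adjusted p = 0.00223), Eif6 by -2.94 (0.000144), Psmd4 by -2.88 (4.84e-05) and Prc1 by -5.29 (0.000538) in limma. Of the 8 largest measured falls from mitotic zygotes, Ldhb, Eif6, Psmd4 and Miox (-2.81) differed less from interphase zygotes. Nusap1 (-3.71), Acot7 (-3.25), Trim27 (-3.18) and Oas1e (-3.25) differed more, and the 2 references were not tested against each other. Mos, the kinase that holds the egg in metaphase, stood at 6.73 to 6.87 in mitotic zygotes, below both genomeless floors, so a fall from there could not be measured.

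The genes called higher in genomeless embryos were higher relative to the other genes of the array. On all 5 arrays 395 rises were detected, by any probe of the gene. Of these, 84 were called with array weights and 60 stayed called when arrays were scaled to the median of detected probes. Over all 1494 genes detected on the 5 arrays the median difference was 0.74, against -0.10 over all genes. A further 50 of the 584 rises were detected on neither genomeless array, 34 of them on no array of the 5, and are not described. Pik3cb, the beta catalytic subunit of PI3-kinase, stood at 7.47, 8.21 and 7.47 in mitotic zygotes and at 11.63 and 12.49 in genomeless embryos, higher by 4.22 (SE 0.78, adjusted p = 0.00236). Rmnd5a, a subunit of the CTLH ubiquitin ligase, stood at 6.83, 6.81 and 6.90 against 10.78 and 11.32, higher by 4.20 (SE 0.47, adjusted p = 0.000117). Arpp19, which in its phosphorylated form inhibits the phosphatase PP2A during mitosis, stood at 8.44, 8.43 and 8.25 against 12.26 and 11.85, higher by 3.66 (SE 0.69, adjusted p = 0.00255). The mitotic arrays agreed within 1 log2 unit in each, and both genomeless arrays lay above all of them. Rank within the array changed likewise, for Rmnd5a from the 43.7th to 45.9th percentile to the 92.9th and 95.6th. The actin nucleator Cobl, 3830406C13Rik, the heparan sulphate enzyme Hs2st1, the transcription factor Tcf4 and Fam160b1 were higher by 3.62 to 3.91. Of these 8 genes, 3830406C13Rik and Tcf4 were not called with array weights (adjusted p = 0.0622 and 0.143), and Tcf4 and Fam160b1 were not called without genomeless B (0.103 and 0.0829). Under median scaling all 8 were still higher, by 2.11 to 3.07, but Arpp19, 3830406C13Rik and Tcf4 were not called (adjusted p = 0.058, 0.0561 and 0.105). Pik3cb and Rmnd5a were also higher than mitotic zygotes in drug controls, by 3.05 and 1.69, whereas Arpp19 differed there by -0.51 and lay below the genomeless level by a direct difference of 4.18 (SE 0.69, adjusted p = 0.000442).

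Genes of the p53 and apoptosis lists were called in both directions. Of 26 p53 and stress genes, 4 (15.4%) were higher and 3 (11.5%) lower, and of 27 apoptosis genes 5 (18.5%) were higher and 3 (11.1%) lower, against 6.85% higher and 13.5% lower over all genes. Under array weights 1 p53 gene was higher and 0 lower, and 1 apoptosis gene was higher and 1 lower. The lists' medians of 0.18 and 0.30 turned to -0.11 and -0.11 under median scaling. Mdm4, an inhibitor of p53, stood at 8.38, 8.52 and 8.50 against 10.66 and 12.83, higher by 3.27 (SE 0.57, adjusted p = 0.00159), and lay above drug controls by 4.85 (SE 0.57, adjusted p = 2.81e-05). Mdm2, the ubiquitin ligase for p53, stood at 9.97, 10.11 and 9.72 against 12.78 and 13.11, higher by 2.97 (SE 0.57, adjusted p = 0.00295, and 0.0554 with array weights). Mcl1, a survival protein, stood at 8.45, 8.09 and 8.57 against 10.61 and 11.42, higher by 2.71 (SE 0.40, adjusted p = 0.000647, but 0.091 under median scaling). Its difference from mitotic zygotes in drug controls was 2.46, and genomeless embryos and drug controls were not called apart (0.25, SE 0.40, adjusted p = 0.685). Casp8 was undetected without a genome and at least 2.53-fold lower (adjusted p = 0.00013). Also on the apoptosis list, Bok was higher by 2.44 (SE 0.57, adjusted p = 0.00834 in limma) and Birc5 lower by 2.63 (SE 0.54, adjusted p = 0.00455). Neither call was kept with array weights (adjusted p = 0.0827 and 0.0743).

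Only 25 genes were detected on both genomeless arrays and on no mitotic array. They were chosen for detection in one group only, so that they were higher there is no finding. S100a6, a calcium-binding protein, was at background on the mitotic arrays and at 11.56 and 12.14 on the genomeless ones, at least 41.5-fold higher (adjusted p = 0.0178, and 0.079 without genomeless B). Krt17, a keratin of skin epithelium, was at least 15.7-fold higher (adjusted p = 0.00478), Dhrs7 at least 12.2-fold (0.0122, and 0.126 without genomeless B) and the tight junction gene Cldn4 at least 11.9-fold (0.000513). Bounds from 6.63 to 8.04 held for the centriole gene Cep120, Mcrip1, Vps54 and Lin7c, and all but Cep120 of these 4 were not called with array weights (adjusted p from 0.0529 to 0.0885). Under median scaling Vps54 and Lin7c were not called either (adjusted p = 0.0855 and 0.0635). Without genomeless B, Mcrip1, Vps54 and Lin7c were not called (adjusted p = 0.0594, 0.0864 and 0.374), which with S100a6 and Dhrs7 left 3 of these 8 genes called.

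Markers of other cells were read beside these genes, since S100a6 and Krt17 are themselves on such lists. Of 17 cumulus and granulosa cell markers, 0 were detected on either genomeless array, the defining genes Fshr and Foxl2 included, while the summed mean-scaled signal was 171.9 and 593.5 against 84.8 to 116.3 on the mitotic arrays. Mitotic A detected Hsd3b1, mitotic B 0 of them and mitotic C Fshr and Hsd3b1. Of the 4 cumulus markers tested, 1, Hsd3b1, was called higher (adjusted p = 0.0218) with neither genomeless array detecting it. Of 19 keratinocyte markers, genomeless A detected Krt17 and Trp63 and genomeless B Krt17, Krt6b and Sfn, with a summed signal of 731.5 and 2543.7 against 93.1 to 107.5 on the mitotic arrays. Among the mitotic arrays B alone detected a keratinocyte marker, Trp63. Of 20 fibroblast markers each genomeless array detected 3, against 3, 1 and 3 on mitotic A, B and C. The summed fibroblast signal was 8905.3 and 6789.6 against 5433.7 to 6179.6. Blood markers were limited to Laptm5 on genomeless A, with a summed signal of 330.1 and 21.8 against 821.7 to 1005.5. Of 15 embryonic stem cell markers, genomeless A detected 5 and genomeless B 2, against 6 on each mitotic array, with a summed signal of 3602.9 and 2251.8 against 4826.8 to 5316.9. S100a6 and Krt17 had group mean levels of 9.61 and 7.98 in interphase transfer and 8.65 and 6.50 in M phase transfer embryos, which lay on the same chips as the genomeless embryos. In drug controls, of which array C lay on chip 6 with genomeless B, the group means were 6.70 and 6.32. The part of other cells or of the chip in these rises was not tested.

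Genes of genome activation were not called higher without a genome. Of 21 tested, 0 were higher (0 also at an unadjusted p below 0.05 in limma) and 2 (9.52%), Dppa2 and Dppa4, lower in genomeless embryos, below the 13.5% of all genes. Only 11 of the 21 were found on every mitotic array. Of these 11, genomeless A detected 2 and genomeless B 1, and 9 were on neither. A rise that stayed below the genomeless floors could not be seen. Against drug controls 18 were lower and 0 higher, where 19.3% of all genes were lower and 11.4% higher. Neither genomeless array detected Dppa2 or Dppa4, and their falls from mitotic zygotes were bounded at only 1.04- and 1.44-fold. With array weights Dppa2 and Dppa4 were not called against mitotic zygotes (adjusted p = 0.245 and 0.105). The list's median difference from mitotic zygotes was -0.06 without a genome and 2.61 and 3.02 in 2-cell embryos and drug controls. Eif1a, a translation initiation factor gene of this wave, was undetected on all 5 arrays, and lay 2.69 above mitotic zygotes in drug controls (adjusted p = 0.000863). Dppa4, which neither genomeless array detected, lay at least 35-fold below drug controls (adjusted p = 5.84e-06). Zfp352 (difference 0.34, SE 0.55), Pou5f1 (-0.06, SE 0.76) and Smarca4 (0.27, SE 0.65) were not called against mitotic zygotes (adjusted p = 0.726, 0.975 and 0.829), and Pou5f1 had probes that differed in direction. Zfp352 was detected on neither genomeless array, and Pou5f1 and Smarca4 on genomeless A alone. With a genome these genes were not called against mitotic zygotes either, in 2-cell embryos (adjusted p = 0.513, 0.263 and 0.0793 in limma) or in drug controls (0.78, 0.326 and 0.113).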

How the data were processed

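The main table the authors deposited gives, for each probe and array, a background-subtracted intensity that was not normalised between arrays, and a detection p-value. Per the submitters' processing notes the software was GenomeStudio, with no version. A second deposited table holds the same intensity times 1 factor per array. Background correction by normexp (offset 50), quantile normalisation and the log2 step used limma 3.58.1 (R 4.3.3). The 11541 probes detected at p below 0.01 on 2 or more arrays entered, and the probe with the highest mean stood for each of 8527 genes, 1377 of which had several probes. For detection of a gene any of its probes counted. Of all probes 20984 carried 1 symbol in the platform annotation, 1 several and 3628 none. A model with 1 mean per group was fitted to 19 samples (11 residual degrees of freedom), with Benjamini-Hochberg adjustment over all genes, after arrays whose log2 differences had an SD under 0.2 were averaged. The fit was tested on simulated data with each group's own spread, where it called more unchanged genes than its threshold allows and missed most of the smallest changes. Same-letter samples did not deviate together (mean correlation 0.01 over 57 pairs, 0.13 over 20 same-chip pairs). Named genes are the 8 largest falls and rises measured on all 5 arrays, the 8 largest bounded ones in each direction, the 10 highest zygote levels, up to 4 members per list and 16 single genes, passing over probes called in opposite directions. The 18 held genes and list members beyond these were named after their values were seen. Members and lists were chosen with earlier results of these data known. Figures were drawn with matplotlib 3.10.9 in Python 3.11.15 with pandas 2.3.3.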

Additional observations from a re-analysis of the deposited data

How the results depend on the processing

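The number of called genes (1738) was 233 with only these groups in the fit, 485 with array quality weights, 2667 with chip as a fixed block and 5140 with undetected values set to the floor of the array, and 625 to 2771 with a replicate left out. Higher calls (584) were 913 with all 21 arrays separate, 95 under median scaling, 302 with the deposited mean-scaled values, 1167 with no detection filter, 4540 at the floor, 1068 with chip as a fixed block, 60 with only these groups, 133 with weights and 151 to 1194 with a replicate left out. Lower calls (1154) were 2118 under median scaling, 1757 with mean-scaled values, 600 at the floor, 173 with only these groups, 352 with weights and 474 to 1577 with a replicate left out. The floor of genomeless B is far above that of the mitotic arrays, so setting values to it makes undetected genes appear higher. By that construction its share of higher calls is 88.3%. The share was 49.5% with no detection filter and 46.5% when normalised without the 2 dimmest arrays, whose calls numbered 1854. The median over all genes (-0.10) was -0.36 under median scaling, -0.32 with mean-scaled values and 1.32 at the floor. Genes held within 2-fold (1178) were 152 with neqc, 2232 under median scaling, 8043 with no filter, 126 when detection was required on all arrays of a group, 28 at the floor, 157 with weights and 526 to 753 with a replicate left out. With a detection p below 0.05, an alternative chosen after seeing the data, 2334 genes were found on all 5 arrays in place of 1494. With the replicate letter as a replicate block 1675 genes were called, 576 higher and 1099 lower. Directions that turned included Zp3 under median scaling (-1.52), Mos at the floor (1.19), Mos against interphase zygotes at the floor (0.15), Hmgcs1 against interphase zygotes with mean-scaled values (1.25), and F8a (1.18), Lsm14b (1.34) and Mos (1.32) against drug controls at the floor. Of these, Mos against interphase zygotes alone was called to begin with. Further differences changed sign without a call in either setting, such as Cnot6l (-0.81) and Sall4 (-0.65) under median scaling. For all of these the cause was not tested. The dim genomeless array measured few genes, and only 2 samples stood on each side.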
